A study of Mus musculus with 22 samples.

Results

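WDR5 and its partners in the MLL (KMT2) complexes were followed as transcripts across a panel of chromatin compounds in mouse embryonic stem cells. The genes were taken by name from the table of expression values: Wdr5, Ash2l, Rbbp5, Dpy30, Kmt2a, Kmt2b, Kmt2c, Kmt2d, Men1 and Setd1a. All 10 were found among the 18487 genes of the table and all 10 were among the 17275 genes kept for testing, those that reached 10 in 2 or more libraries. RNA was measured in 22 libraries of E14 cells, a mouse embryonic stem cell line that the study grew in serum with LIF, with 2 libraries for each of 11 groups. The labels name 10 compounds (Bromosporine, Chaetocin, CPTH2, DZNep, Garcinol, IOX1, MS023, OICR, UNC0379 and Valproate) and a group NC, which names no compound and served as the reference. They give no dose, no time and no genetic change, and all groups share the same cell line. They do not say whether the 2 libraries of a group came from separate cultures, so the p-values measure only the spread between these libraries, which may be technical.

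Bromosporine is a ligand of bromodomains and Valproate an inhibitor of the enzymes that remove histone acetyl groups, whereas CPTH2 and Garcinol block acetyltransferases. Chaetocin inhibits lysine methyltransferases, UNC0379 is directed at SETD8, and MS023 at type I arginine methyltransferases. DZNep blocks the breakdown of S-adenosylhomocysteine, a product that holds back methyltransferases, and IOX1 inhibits oxygenases that use 2-oxoglutarate. The label OICR gives no further name, and nothing is assumed about its target.

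The MLL and SET1 enzymes place methyl groups on lysine 4 of histone H3, the mark of active promoters and enhancers. Their catalytic SET domain is weak alone and works on a core made of WDR5, RBBP5, ASH2L and DPY30. WDR5 holds this core together by taking up an arginine of the enzyme, in a short stretch called the Win motif, in its central pocket. KMT2A and KMT2B act with menin, the product of Men1, KMT2C and KMT2D mark enhancers, and SETD1A carries the bulk of promoter methylation. In embryonic stem cells the core subunits are known to be needed for self-renewal or for a normal entry into differentiation.

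The coding bases around the Win motif are shown because this motif joins the 5 enzymes to Wdr5, the gene at the centre of the set. The capitals mark the codon of the arginine that enters the pocket of WDR5. Sequences are from the GENCODE M21 transcripts (mm10) and run 5′ to 3′ on the coding strand.
Kmt2a: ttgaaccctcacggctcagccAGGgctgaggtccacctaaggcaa
Kmt2b: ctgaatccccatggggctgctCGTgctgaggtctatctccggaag
Kmt2c: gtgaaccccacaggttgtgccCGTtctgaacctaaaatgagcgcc
Kmt2d: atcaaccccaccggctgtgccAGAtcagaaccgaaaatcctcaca
Setd1a: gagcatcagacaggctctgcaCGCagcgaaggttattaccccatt

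These stretches lie at chr9:44810902-44810946 on the minus strand for Kmt2a, at chr7:30570042-30570331 on the minus strand across a splice junction for Kmt2b, at chr5:25281684-25281728 on the minus strand for Kmt2c, at chr15:98837086-98837130 on the minus strand for Kmt2d and at chr7:127797127-127797171 on the plus strand for Setd1a, all in coding exons. Kmt2c and Kmt2d shared 32 of 45 bases and Kmt2a and Kmt2b shared 29 of 45, while the other pairs of enzymes shared 15 to 22. The sequence sorts Kmt2a to Kmt2d into the known pairs. Setd1a shared 15 bases with Kmt2a and 20 or 21 with Kmt2b, Kmt2c and Kmt2d. Enzymes of different pairs shared 20 to 22.

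The genes themselves lie on separate stretches of mm10. Among the core subunits, Wdr5 lies at chr2:27515157-27536535 (plus strand), Ash2l at chr8:25815996-25847694 (minus), Rbbp5 at chr1:132477365-132505659 (plus) and Dpy30 at chr17:74299474-74323944 (minus). Among the enzymes, Kmt2a lies at chr9:44803355-44881296 (minus), Kmt2b at chr7:30568858-30588726 (minus), Kmt2c at chr5:25271798-25498783 (minus), Kmt2d at chr15:98831669-98871204 (minus) and Setd1a at chr7:127776670-127800122 (plus), and Men1 lies at chr19:6334979-6340891 (plus). Exons of Setd1a overlap those of the same-strand gene Gm49388 and of the opposite-strand gene 9430064I24Rik, and 54.6% of its 31-base words also occur in transcripts of other genes, so its values are uncertain. For Rbbp5 this share was 13.3% and for Dpy30 5.67%. Kmt2a and Kmt2c face the antisense genes AC061963.1 and Gm42585, and the sources used here do not say that strand was used in counting.

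The values are normalized read counts, brought by the authors to one common distribution, so that the median over genes was 409 in every library. The largest value in the table was 221616. A change shared by most genes cannot be seen on this scale, and genes of equal rank in different libraries receive the same value. The depth behind each library is unknown. The label of pluripotent cells fits the markers: Pou5f1 lay between 25663 and 39262 in all 22 libraries and Nanog between 31970 and 123367. The fibroblast marker Dcn was at 0 in every library, and the summed value of 6 fibroblast markers ran from 524 to 625 in NC, 1103 to 1158 with DZNep, 700 to 1247 with Valproate and 12 to 1247 over all libraries. Postn made up most of the sum in NC (474 and 559), was 677 and 819 with DZNep and 658 and 0 with Valproate, and was at 0 in 12 of the 22 libraries. Of these markers, Col1a1 (24 and 24 in NC) was called higher with DZNep (327 and 228) and lower with Bromosporine (7 and 6), Thy1 (12 and 11) was called higher with DZNep (66 and 64) and Valproate (358 and 303), and Lum, 0 in each library of NC, had 197 and 331 in those of Valproate and 346 and 0 in those of CPTH2. Their part in the results below was not tested. Among lineage markers, Sox1 (742 and 514 in NC) was called lower with DZNep (225 and 204), MS023 (230 and 246) and Valproate (252 and 283), and Gata4 (156 and 154) with DZNep (35 and 61). Of 8 pluripotency genes, only Zfp42 passed, with DZNep (16469 and 20763 in NC, 49540 and 33822 with DZNep). With DZNep 4 of the 8 had an unadjusted p under 0.05 (limma, background 35.4%). Nanog was 44793 and 59405 in NC and 92251 and 123367 with DZNep (log2 change 1.05, adjusted p = 0.057 in limma). Tdgf1 was 25722 and 15640 in NC and 11541 and 8477 with DZNep (-1.02, adjusted p = 0.10). Called means an adjusted p under 0.05 (limma, Benjamini-Hochberg within each compound) with a fold over 2, and passed means an adjusted p under 0.05 at any fold.

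All 10 subunit genes were expressed in every library, and none was at 0. Levels of different genes can be set side by side only per length, here as the normalized read count per kilobase of the longest annotated transcript, averaged over the 22 libraries. The core subunits stood highest on this scale: Dpy30 at 5624, Wdr5 at 4493, Ash2l at 4278 and Rbbp5 at 2080. The enzymes and menin followed, with Kmt2b at 1038, Men1 at 949, Setd1a at 461, Kmt2d at 218, Kmt2c at 183 and Kmt2a at 157. On this scale Dpy30 stood 35.8 times above Kmt2a, and of the MLL enzymes Kmt2b was the highest. The study's methods mention GC content beside the normalization. If values were set within classes of GC content, levels of genes from different classes are not comparable even per length. Over the 22 libraries, every rank of Wdr5 among all genes ended in the same digit (529 and 489 in NC, 359 and 359 with OICR). So did every rank of Ash2l (391 and 401 in NC) and of Rbbp5 (1136 and 996 in NC). These genes thus took only some of the ranks. What set this pattern was not tested, and the distances between genes are uncertain. With all annotated exons joined as the length, 6 of 10 genes kept their place, and Ash2l, whose longest transcript is a single exon, moved from 4278 to 1766, below Rbbp5 (1791).

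**Figure D1:**
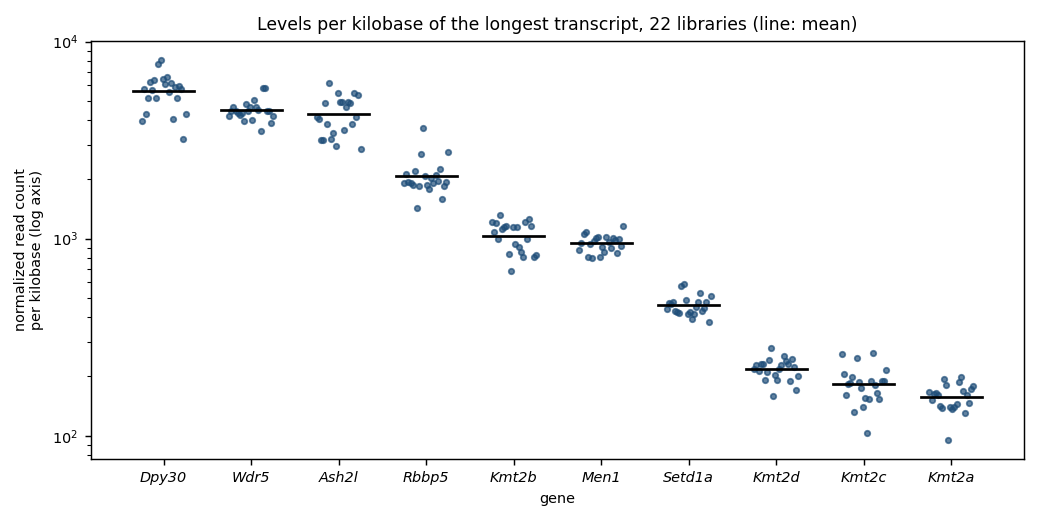
Normalized read count per kilobase of the longest transcript (log axis) for each gene, with a point per library and a line at the mean of 22 libraries. The core subunits lie above the enzymes, from Dpy30 at a mean of 5624 down to Kmt2a at 157.

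Which compounds changed these genes was asked by comparing each compound with NC in 1 model over all 22 libraries. Of the 100 pairs of a subunit gene and a compound, 0 were called, against 2.15% of the pairs over all genes tested and 0.732% over genes at least as high as Kmt2a, the lowest of the 10. With limma, 3 pairs passed (background 4.23%), and 8 had an unadjusted p under 0.05 (background 13.2%). The 3 were all with DZNep: Rbbp5 and Dpy30 rose and Kmt2b fell. All 3 also passed with a pseudocount of 10, with no filter on low values and under median-ratio rescaling. Against the mean of the other 10 groups their adjusted p-values in limma were 0.0021, 0.014 and 0.0061, where 34% of all genes passed with DZNep. None of the 3 remained when p-values were adjusted over all compounds together (adjusted p of 0.10, 0.11 and 0.055 in limma), in a fit of DZNep and NC alone (0.18, 0.18 and 0.15), or without the first NC library. The fit of DZNep and NC alone passed 0.562% of all genes, beside 23.6% with DZNep in the main model. In 92 of the 100 pairs the 95% interval of the change lay within a 2-fold rise or fall. The other 8 were 3 pairs of Ash2l, 3 of Kmt2c and the pairs of Rbbp5 and Dpy30 with DZNep. The median size of the log2 change was 0.11 for the 10 genes and 0.23 for all genes tested. In 35 of the pairs the libraries of compound and NC did not overlap (background 40.7%).

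**Figure D2:**
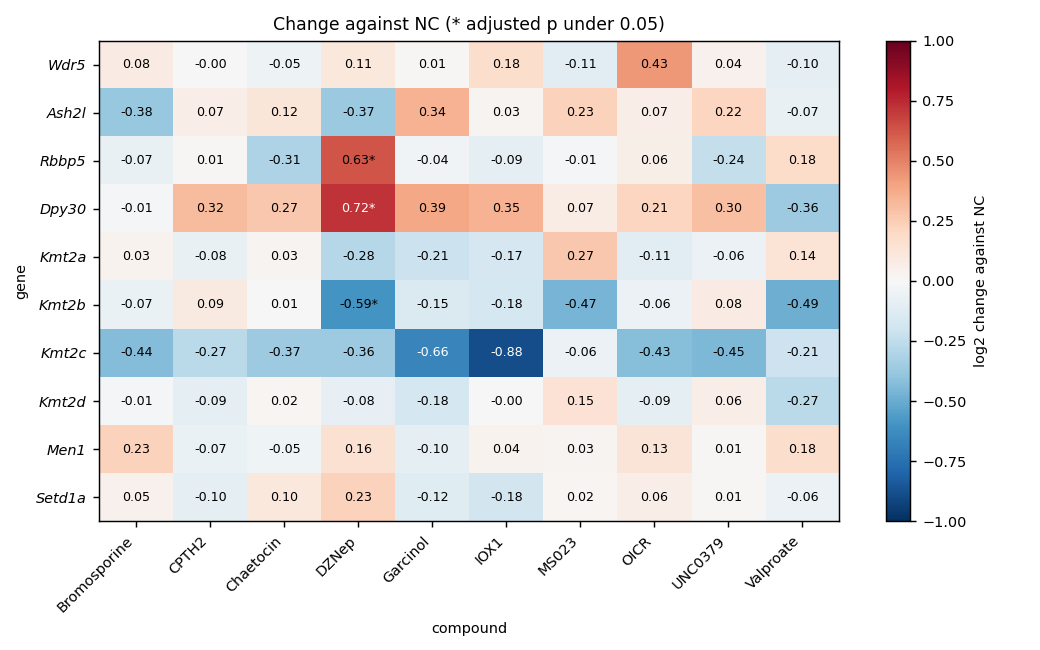
Log2 change against NC of each gene (rows) with each compound (columns), from the model over 22 libraries, with a star where the adjusted p was under 0.05. The 3 starred cells are Rbbp5 (0.63), Dpy30 (0.72) and Kmt2b (-0.59) with DZNep, and the deepest cell without a star is Kmt2c with IOX1 (-0.88).

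Wdr5 had the smallest spread within groups of the 10 genes and stood apart in one group. Its normalized read counts were 12053 and 12808 in NC, 13538 and 12808 with Bromosporine, 12502 and 11454 with Chaetocin, 12502 and 12283 with CPTH2, 14022 and 12808 with DZNep, and 13538 and 11619 with Garcinol. They were 14626 and 13538 with IOX1, 13062 and 10116 with MS023, 16767 and 16767 with OICR, 12808 and 12808 with UNC0379, and 11169 and 12053 with Valproate. Both OICR libraries lay above all 20 others, of which the nearest was an IOX1 library at 14626. Against NC, the OICR value was 1.35-fold higher (log2 change 0.43, SE 0.12, 95% interval 0.18 to 0.68), with an unadjusted p of 0.0025 and an adjusted p of 0.13 in limma, so that it did not pass. With the 2 OICR libraries at one rank, their spread cannot be read from these values. The UNC0379 libraries were equal as well, and Wdr5 took 13 distinct values over the 22 libraries. Such ties enter the spread within groups, on which the SE and the p-values rest. The step from OICR to IOX1, 0.25 on the log2 scale, was the only one between neighbours in the order of the 11 group means of Wdr5 that was larger than the SD within groups, 0.11. With the other 9 compounds the log2 change of Wdr5 lay between -0.11 and 0.18.

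With OICR the log2 changes of the other subunits lay between -0.43 (Kmt2c) and 0.21 (Dpy30). Kmt2c thus changed about as much as Wdr5 (0.43), in the other direction, with an SE of 0.26. Its OICR libraries (2717 and 2468) lay below both NC libraries (3909 and 3093). Of the 10 genes, 0 passed (background 0.637%, limma), and 1, Wdr5, had an unadjusted p under 0.05 (background 10.7%). The median change of the 10 genes with OICR was 0.06, beside 0.01 over all genes.

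**Figure D3:**
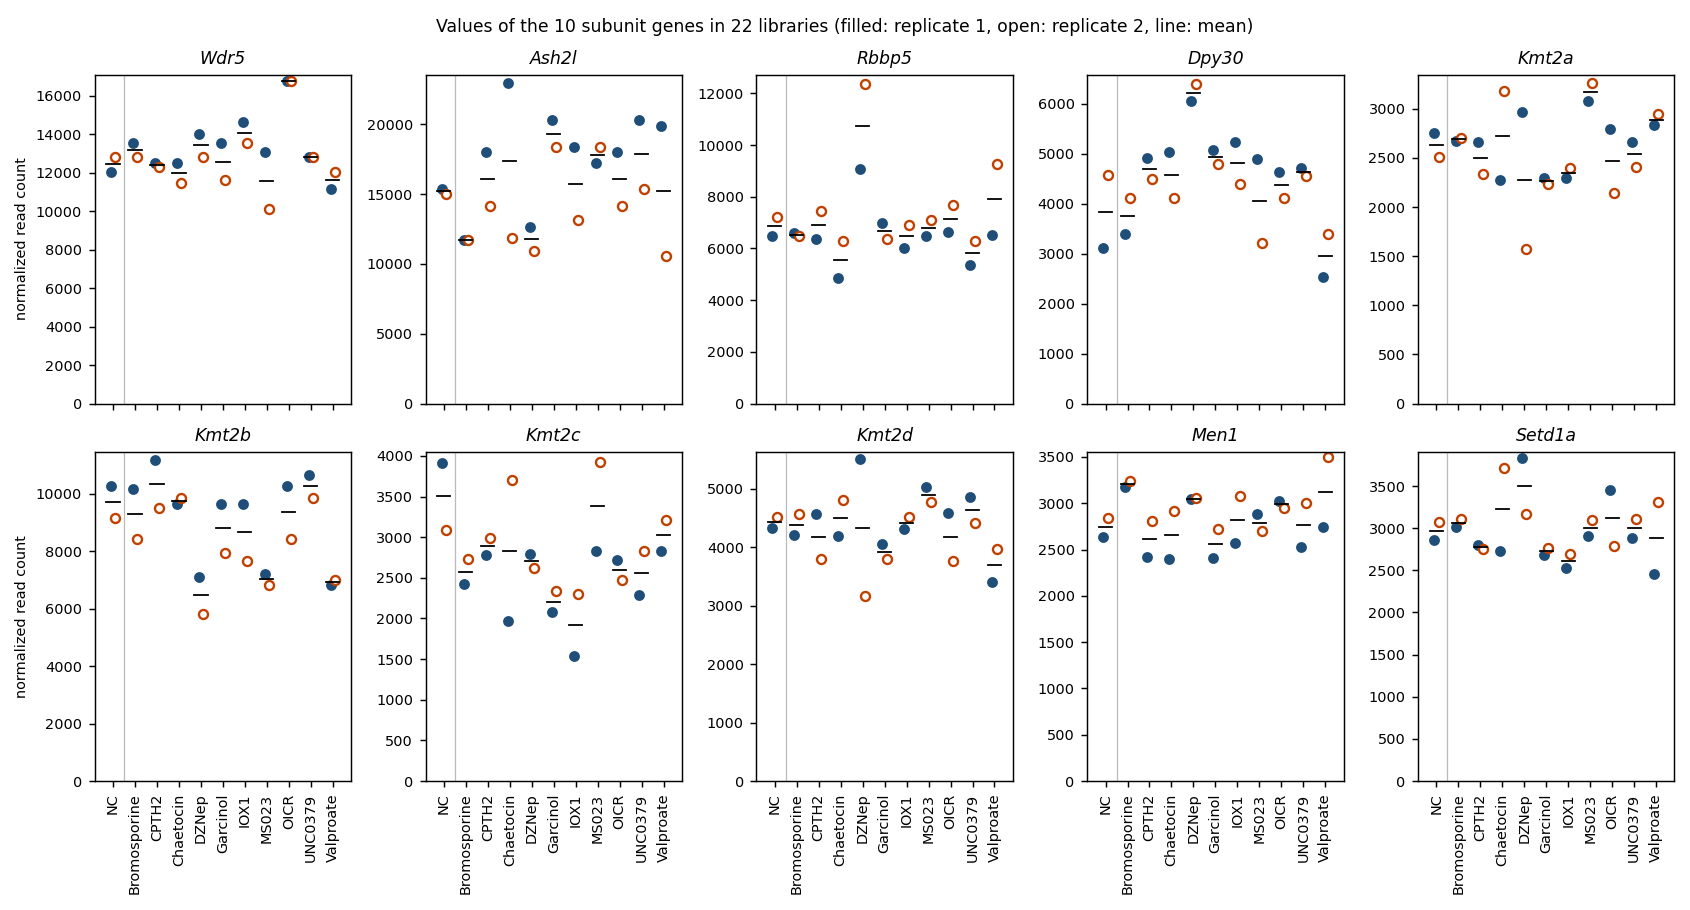
Normalized read count (linear axes from 0) of each gene in all 22 libraries, with replicate 1 filled, replicate 2 open and a line at the group mean. Wdr5 is highest in both OICR libraries (16767 in each), and Dpy30 and Rbbp5 are highest in the DZNep group. Kmt2b is low with DZNep, MS023 and Valproate, of which only DZNep passed against NC.

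Rbbp5, a scaffold of the core next to WDR5, was highest with DZNep. Its normalized read counts were 6500 and 7226 in NC, 6583 and 6466 with Bromosporine, 4853 and 6290 with Chaetocin, 6368 and 7461 with CPTH2, 9092 and 12357 with DZNep, and 7005 and 6368 with Garcinol. They were 6028 and 6905 with IOX1, 6500 and 7106 with MS023, 6637 and 7673 with OICR, 5367 and 6290 with UNC0379, and 6538 and 9272 with Valproate. Both DZNep libraries lay above both NC libraries, and a Valproate library at 9272 fell between them. Rbbp5 rose 1.55-fold with DZNep (log2 change 0.63, SE 0.19, 95% interval 0.23 to 1.03, adjusted p = 0.026 in limma). Without the second DZNep library the change was 0.41 with an adjusted p of 0.19 in limma, and without the first or the second NC library it was 0.55 (adjusted p = 0.16) or 0.71 (0.055), so that it did not pass in any of these cases.

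Dpy30, the small subunit that docks on ASH2L and raises the activity of the core, had the widest range of group means of the 10 genes. Its normalized read counts were 3105 and 4562 in NC, 3393 and 4106 with Bromosporine, 5030 and 4106 with Chaetocin, 4912 and 4486 with CPTH2, 6043 and 6387 with DZNep, and 5075 and 4787 with Garcinol. They were 5232 and 4389 with IOX1, 4884 and 3206 with MS023, 4631 and 4106 with OICR, 4720 and 4545 with UNC0379, and 2526 and 3393 with Valproate. Both DZNep libraries lay above all 20 others, and the group mean with DZNep was 2.10 times that with Valproate, the lowest. Dpy30 rose 1.65-fold with DZNep (log2 change 0.72, SE 0.22, 95% interval 0.26 to 1.19, adjusted p = 0.026 in limma). Against the mean of the other 10 groups the log2 change was 0.57 (SE 0.16, adjusted p = 0.014 in limma). The change against NC rests on NC libraries that lie far apart (3105 and 4562): it was 0.45 without the first NC library and 1.00 without the second. Without the first or the second DZNep library it was 0.76 or 0.68, with adjusted p-values of 0.071 and 0.094 in limma. Over all groups, Wdr5 with OICR and Dpy30 with DZNep were the 2 of 110 pairs of gene and group that lay apart from every other library (1.82%, against 3.85% over all genes).

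Ash2l, the subunit that binds DPY30 and steadies the SET domain, had the largest spread within groups. Its normalized read counts were 15395 and 15030 in NC, 11690 and 11690 with Bromosporine, 12675 and 10953 with DZNep, 22956 and 11865 with Chaetocin, and 19854 and 10538 with Valproate. In the remaining groups they lay between 13125 and 20309. The SD within groups was 0.33 on the log2 scale, beside 0.11 for Wdr5, and no neighbours in the order of its group means differed by more than that. The largest difference from NC was with Bromosporine (log2 change -0.38, SE 0.31, 95% interval -1.05 to 0.29, adjusted p = 0.58 in limma), where both libraries lay below both NC libraries.

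**Figure D4:**
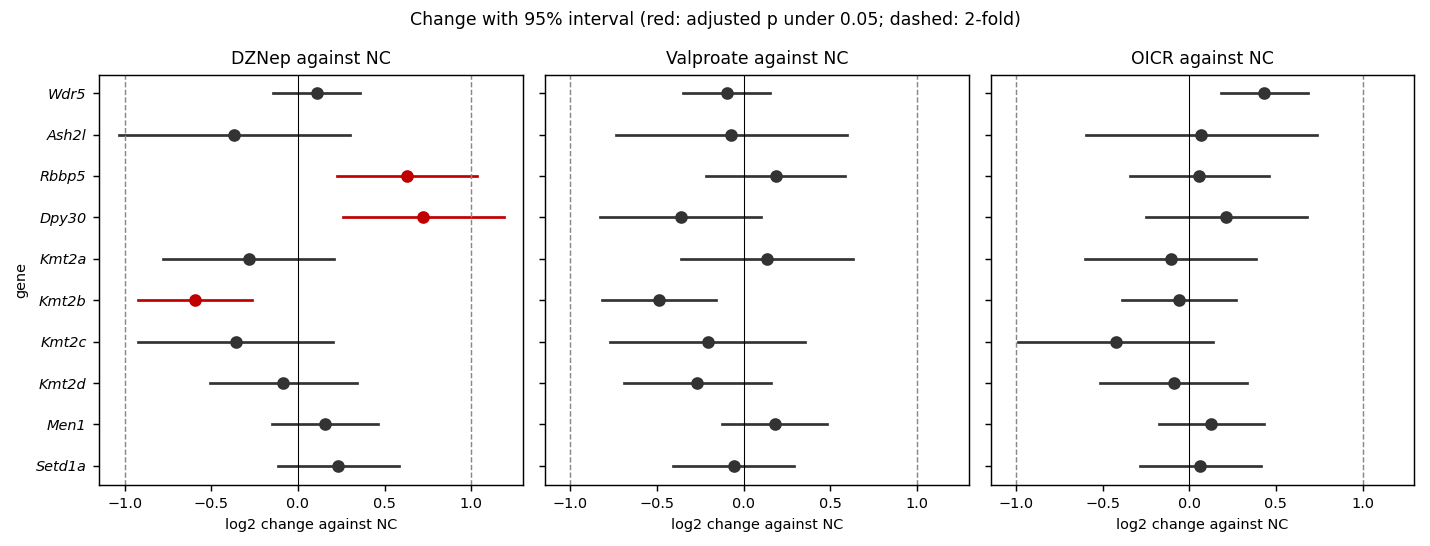
Log2 change against NC with its 95% interval for the 10 genes with DZNep, Valproate and OICR, with dashed lines at a 2-fold change and red where the adjusted p was under 0.05. With DZNep, Rbbp5 and Dpy30 lie to the right and Kmt2b to the left, with OICR Wdr5 is farthest right, and with Valproate Kmt2b is farthest left.

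Kmt2b, the methyltransferase known for promoters that carry both active and repressive marks in stem cells, was the only one of the 10 genes to differ over the 11 groups as a whole (F test of limma, adjusted p = 0.020, background 29.7%). Its normalized read counts were 10288 and 9169 in NC, 10157 and 8442 with Bromosporine, 9654 and 9876 with Chaetocin, 11193 and 9518 with CPTH2, 7099 and 5833 with DZNep, and 9654 and 7955 with Garcinol. They were 9654 and 7666 with IOX1, 7218 and 6837 with MS023, 10288 and 8442 with OICR, 10652 and 9876 with UNC0379, and 6837 and 6996 with Valproate. The libraries of DZNep, MS023 and Valproate, between 5833 and 7218, lay below those of every other group, of which the lowest was 7666. These groups were picked after the values were seen. The share of all genes that set some groups apart in this way was not counted, so the separation has no background. With DZNep, Kmt2b fell to 0.66 of NC (log2 change -0.59, SE 0.15, 95% interval -0.92 to -0.26, adjusted p = 0.012 in limma). It was -0.51 without the first NC library (adjusted p = 0.11) and -0.45 without the second DZNep library (0.092), and it passed without the second NC library or the first DZNep library. With Valproate the log2 change was -0.49 (SE 0.15, adjusted p = 0.059), and with MS023 it was -0.47 (SE 0.15, adjusted p = 0.15), and neither passed, although Valproate did when either DZNep library was left out. In the F test Wdr5 and Rbbp5 each had an adjusted p of 0.061 and Dpy30 one of 0.065, and the other 6 genes lay between 0.26 and 0.80.

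Kmt2c, an enhancer methyltransferase, held the largest single change and did not pass. Its normalized read counts were 3909 and 3093 in NC, 2420 and 2732 with Bromosporine, 1966 and 3699 with Chaetocin, 2783 and 2988 with CPTH2, 2798 and 2622 with DZNep, and 2082 and 2334 with Garcinol. They were 1543 and 2299 with IOX1, 2829 and 3928 with MS023, 2717 and 2468 with OICR, 2292 and 2829 with UNC0379, and 2829 and 3212 with Valproate. NC had the highest group mean, so that the fitted value was lower with all 10 compounds, which share the 2 NC libraries. Set against the second NC library alone it was lower with 9 of 10. With IOX1 the value was 0.54 of NC (log2 change -0.88, SE 0.26, 95% interval -1.45 to -0.32, unadjusted p = 0.0047, adjusted p = 0.19 in limma).

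Kmt2d, its paralog, was flatter. Over the 22 libraries it ran from 3158 to 5506, with a median of 4365, and the lowest and the highest library both belonged to DZNep. NC had 4325 and 4517, and the largest difference was with Valproate (3402 and 3966, log2 change -0.27, SE 0.20, 95% interval -0.69 to 0.16, adjusted p = 0.44 in limma). Kmt2a, the MLL1 enzyme named for its rearrangement in leukaemia, ran from 1575 to 3264 with a median of 2661. The DZNep libraries of Kmt2a were 2965 and 1575, on either side of those of NC (2756 and 2512), and the fitted change was -0.28 (SE 0.23, 95% interval -0.78 to 0.21, adjusted p = 0.40). It was 0.17 without the second DZNep library, and -0.74 without the first, where the adjusted p was 0.016 in limma and Kmt2d passed as well. Both genes have long transcripts, and over 397 genes with a transcript of at least 10 kb the median log2 difference of the second from the first DZNep library was -0.10, beside 0.03 over all genes. For these long genes the same difference was 0.20 with Chaetocin and 0.15 with MS023. Kmt2c, which is also long (14967 bases), differed by -0.09 between the DZNep libraries. The part of transcript length in the Kmt2a and Kmt2d values was not tested.

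Men1 varied least between groups: its highest group mean was 1.25 times its lowest, beside 1.34 for Setd1a. Men1 ran from 2403 to 3498 with a median of 2860. NC had 2639 and 2838 and Bromosporine 3175 and 3238, which was its largest change (log2 change 0.23, SE 0.14, 95% interval -0.08 to 0.53, adjusted p = 0.43 in limma). Setd1a ran from 2459 to 3835 with a median of 2893. NC had 2862 and 3076 and DZNep 3835 and 3173 (log2 change 0.23, SE 0.16, 95% interval -0.11 to 0.58, adjusted p = 0.32). For Ash2l, Kmt2a, Kmt2c, Kmt2d, Men1 and Setd1a, 0 of the 10 steps between neighbours in the order of group means were larger than the SD within groups, so that these orders are not resolved by 2 libraries a group.

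Set side by side by compound, DZNep was the one with which subunits passed: 3 of 10 in all (background 23.6%, and 35.4% at an unadjusted p under 0.05, where it was the same number), of which 2 rose (10.7%) and 1 fell (12.8%), and 7 of 10 did not overlap with NC (58.9%). The median size of change with DZNep was 0.32 for the 10 genes and 0.46 over all genes. Of the other core subunits, Wdr5 had a log2 change of 0.11 with DZNep (95% interval -0.14 to 0.36) and Ash2l of -0.37 (-1.04 to 0.30), and differences between subunits were not tested. With Valproate, 0 genes passed (background 10.3%, limma) and 1, Kmt2b, had an unadjusted p under 0.05 (24.1%). With Bromosporine, 0 passed (5.4%) and 0 had an unadjusted p under 0.05 (19%), and with MS023, 0 passed (2.21%) and 1, Kmt2b, had an unadjusted p under 0.05 (15%). With Chaetocin, CPTH2 and UNC0379, 0 genes passed in limma (backgrounds of 0.0174%, 0.00579% and 0%) and 0 had an unadjusted p under 0.05 (4.72%, 0.944% and 6.08%). With Garcinol and IOX1, 0 passed in limma (0.00579% and 0.127%) and 1 each, in both cases Kmt2c, had an unadjusted p under 0.05 (3.62% and 12.4%).

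How the subunits vary together was described by the Pearson correlation of log2 values over the 22 libraries, which share replicate numbers and one normalization. Over the 45 pairs of genes the median was 0.07. The highest was 0.68, between Kmt2a and Kmt2d, with 0.40 over the 11 libraries numbered 1, 0.84 over those numbered 2, 0.48 without the DZNep libraries and 0.33 over the 11 group means. The lowest was -0.84, between Ash2l and Men1, with -0.77 over the 11 libraries numbered 1 and -0.83 over those numbered 2. Rbbp5 and Kmt2b had -0.67, and -0.46 without DZNep.

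The genes whose pattern was most like that of Wdr5, among those with a mean value of at least 100, were Pou5f1 (r = 0.82), a core pluripotency factor, Etv5 (0.82), a transcription factor downstream of FGF and ERK, and Plxnb2 (0.80), a semaphorin receptor. Pou5f1 was 28606 and 29454 in NC and 35317 and 39262 with OICR. Without the OICR libraries its correlation with Wdr5 was 0.64. Over the 11 group means only Pou5f1 kept its place among the first 3.

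**Figure D5:**
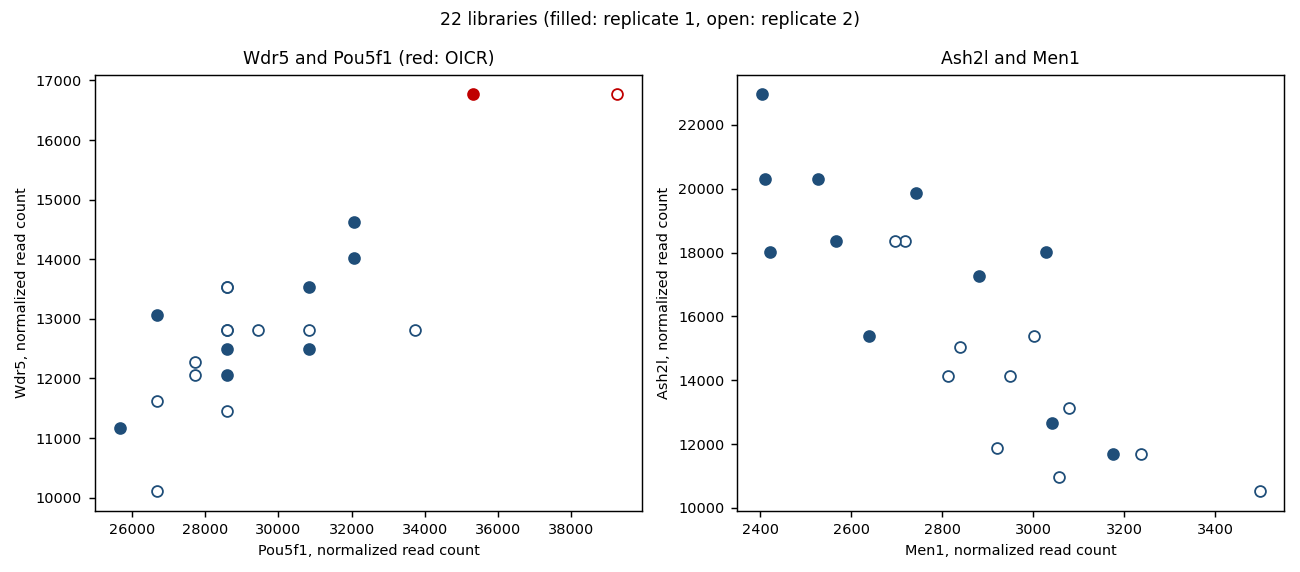
Left, normalized read count of Wdr5 against Pou5f1, and right, of Ash2l against Men1, with a point per library (replicate 1 filled, replicate 2 open). The OICR libraries (red) lie at the upper right on the left, and Ash2l falls as Men1 increases on the right (r = -0.84).

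The rest of the pathway was followed by lists. Of 12 other subunits of the KMT2 and SET1 complexes, 1 gene passed, Bod1, a subunit linked to SETD1B complexes: it was 1744 and 1681 in NC and rose to 2752 and 2475 with DZNep (log2 change 0.61, SE 0.12, adjusted p = 0.0024 in limma) and to 2647 and 2214 with MS023 (0.50, SE 0.12, adjusted p = 0.046). None of the 120 pairs of this list was called (limma, background 2.15%), 2 passed (4.23%), 4 had an unadjusted p under 0.05 (13.2%), and 1 pair passed in place of 2 when any library other than those of Chaetocin and DZNep was left out. The 7 genes of the NSL complex and OGT, which holds WDR5 outside the MLL complexes, and the 5 demethylases of H3K4, which remove the mark, gave 0 passed pairs each with limma, with 5 of 70 and 0 of 50 pairs at an unadjusted p under 0.05 (background 13.2%).

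Of 10 textbook targets of MLL and menin, 8 were tested. Of their 80 pairs with a compound, 6 passed (7.5%, background 4.23%), all lower, and 5 were called (6.25%, background 2.15%). With DZNep, 4 of the 8 genes passed, beside 23.6% of all genes. Without the first NC library 1 pair passed, without the second 4, and in fits of each compound with NC alone 0. Cdkn1b, a cell cycle inhibitor, was 2571 and 1976 in NC, 1145 and 875 with DZNep (log2 change -1.17, SE 0.21, adjusted p = 0.0015 in limma) and 1245 and 1095 with Valproate (-0.95, SE 0.21, adjusted p = 0.011). The Hox genes of the list, which set position along the body axis, were low in these cells. Hoxa10 was 71 and 36 in NC and 2 and 5 with DZNep, and Hoxa9 was 13 and 13 and then 2 and 1, with adjusted p-values of 0.0041 and 0.037 in limma. Hoxa7 was 36 and 26 in NC and 4 and 10 with Valproate (adjusted p = 0.016). The median log2 change of the 8 genes was below 0 with all 10 compounds, which share the NC libraries. It was -0.91 with DZNep, -0.69 with MS023, -0.62 with Valproate, -0.58 with UNC0379, -0.41 with Chaetocin and -0.38 with Garcinol, and between -0.25 and -0.02 with CPTH2, Bromosporine, IOX1 and OICR. Over all genes the median lay between -0.04 and 0.01.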

How the data were processed

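RNA-seq libraries of E14 cells were grouped by the treatment labels and titles. Per the labels, poly-A RNA was enriched with oligo-dT before library preparation, and the submitters' processing notes name bcl2fastq, Bowtie2 2.2.5, RSEM and mm10. The deposited values are scores, namely read counts that the authors normalized with EDASeq (full-quantile) and rounded. Whether RSEM or TEtranscripts counts were used is not given in the sources used here. A second table, of group means, was not used here.

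Values were analysed as log2(value + 1) with limma 3.58.1 in R 4.3.3, with 11 group means fitted to 22 libraries (11 residual degrees of freedom), moderated with a trend, each compound against NC, two-sided, with Benjamini-Hochberg adjustment within each compound. A fold change on this scale understates the change of low genes. Testing was limited to genes that reached 10 in 2 or more libraries. For a single value, an exact permutation test of 2 against 2 libraries cannot go below p = 0.333. Data were simulated for DZNep against NC over 17275 genes. In them 68 genes changed by 0.6 (log2), 66 by 1 and 66 by 2, all within the range of levels of the 10 genes. The test passed 29.4%, 63.6% and 95.5% of these. In the data 4069 genes passed with DZNep, so that the adjustment was stricter in the simulation. These shares therefore do not give the power of the DZNep test.

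The members and the gene lists were chosen with earlier results of these data known. For the members, each pair that passed and each gene's largest change are given in full; from the other lists, each called gene is named, except one that is not reported here. Alternatives were another pseudocount, no filter, median-ratio rescaling, a replicate block, other references and adjustments, and leaving out each library. Annotation was read with Python 3.11.15 (numpy 2.4.6), and plots were drawn with matplotlib 3.10.9.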

Additional observations from a re-analysis of the deposited data

How the results depend on the processing

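The 3 passed pairs of the 10 genes became 0 when p-values were adjusted over all 10 compounds together (adjusted p of 0.10 for Rbbp5, 0.11 for Dpy30 and 0.055 for Kmt2b) and 0 in a fit of the DZNep and NC libraries alone (0.18, 0.18 and 0.15), so that the count with DZNep was 0 under both. Over all genes 3.06% of pairs passed in the first setting and 0.362% in the second, which leaves fewer libraries. For DZNep these shares were 13.9% and 0.562%, beside 23.6% in the main model. Against the mean of the other 10 groups 5 pairs passed (background 7.7%). They were the 3 with DZNep (Rbbp5 at 0.68, Dpy30 at 0.57 and Kmt2b at -0.47) and 2 with Valproate (Dpy30 at -0.62 and Kmt2b at -0.36). Leaving out one library at a time, 0 to 1 pairs were called, 0 to 5 passed over all compounds (0 without the first NC library, 5 without the first DZNep library), 0 to 4 with DZNep, and 1 to 3 genes differed over the groups. With one library left in an arm, that library is assumed to vary like the others. Shares over all genes are not given for the fits without a library, here or for the lists. Whether passed pairs fell as much over all genes in those fits was not tested. Without the second DZNep library the change of Kmt2a turned from -0.28 to 0.17, and without the first it was -0.74. Under median-ratio rescaling, which moved the median of all genes by at most 0.036, 2 of the 10 genes differed over the 11 groups (Rbbp5 and Kmt2b, background 29.6%). The depth that each library reached is not known here, and 2 libraries a group limit what can pass.

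Replicate numbers are shared between groups without a stated pairing. Over 55 pairs of groups, same-numbered libraries had a correlation of deviations between 0.053 and 0.30 (median 0.20), with 4 under 0.1, and 20 of 22 libraries were closer to their own number. With the replicate block 7 pairs of the 10 genes passed: the 3 with DZNep and 1 each with IOX1 (Kmt2c), MS023 (Kmt2b), OICR (Wdr5, adjusted p = 0.031, limma) and Valproate (Kmt2b). Over the groups 4 of the 10 genes then differed (Wdr5, Rbbp5, Dpy30 and Kmt2b), against 65.9% of all genes. Over all genes the block raised the passed pairs to 10.6%.

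For the lists, passed pairs changed as follows. Other KMT2 and SET1 subunits, 2 pairs, gave 4 with the block, 1 with rescaling, 5 against the other groups, 0 with only the pair of groups fitted, and 1 to 2 leaving out a library. The NSL complex and OGT, 0 pairs, gave 9 with the block and 7 against the other groups, and the H3K4 demethylases, 0 pairs, gave 2 with the block; both gave 0 leaving out a library. The targets of MLL and menin, 6 pairs, gave 0 with only the pair of groups, and 1 to 6 leaving out a library, the fewest without the first NC library. Pluripotency genes, 1 pair, gave 10 with the block, 2 with rescaling, 6 against the other groups, 0 with only the pair, and 1 to 4 leaving out a library. Fibroblast markers, 5 pairs, gave 8 against the other groups and 3 to 6 leaving out a library. Lineage markers, 4 pairs, gave 10 with the block, 7 against the other groups, 0 with only the pair, and 4 to 7 leaving out a library. With joined exons as the length 6 of 10 genes kept their place, and over the group means 1 of the 3 genes most like Wdr5 stayed among the first 3. Where no construction above gives it, the cause was not tested.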
